A study of Mus musculus with 2 samples.

Results

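The genes Ccnb1ip1, Pnp, Pnp2, Gm26782 and Rpgrip1 lie on mouse chromosome 14 and were described across the blood progenitors of a GATA-1 knock-in and a wild-type library. They were chosen by name, as 5 of the 31053 genes in the files, because their levels had been seen to differ between these libraries. Their differences between the libraries are therefore a description, with no test. Over all cells Ccnb1ip1 was higher in the knock-in, and Pnp, Pnp2, Gm26782 and Rpgrip1 were lower. The excess of Ccnb1ip1 lay almost wholly in erythroid cells. Rpgrip1 and Gm26782 were lower in each of the 7 cell classes compared. Pnp2 had no count in the knock-in, and Pnp was not higher in its place in the erythroid cells, where wild-type Pnp2 was highest.

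The study profiled bone marrow cells that had been sorted as Lin- Kit+, which selects immature cells with the stem cell factor receptor Kit on their surface and without markers of finished blood cells. The tested animals carried a knock-in mutation of GATA-1, labelled 2RA in the series title, and the others were wild type. GATA-1 binds GATA letters in DNA and drives the formation of red cells, platelets, mast cells and eosinophils. There was 1 library per genotype, and the labels name no treatment, strain, age, sex or number of mice. Every difference is thus between 2 libraries and has no replicate check, and genotype, animal and library preparation cannot be told apart.

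Purine nucleoside phosphorylase, the product of Pnp, splits inosine and guanosine into a base and ribose phosphate, which feeds the salvage of purines. Its loss in humans causes a T cell immunodeficiency. Pnp2 is a close copy of Pnp that lies beside it in the mouse genome. Ccnb1ip1, also called HEI10, is a RING-type ubiquitin ligase that binds cyclin B1 and is needed for meiotic crossovers in mice. Rpgrip1 anchors the RPGR protein at the connecting cilium of photoreceptors. Gm26782 is annotated as an antisense RNA.

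The files held 6640 knock-in and 7471 wild-type barcodes, with 48005467 and 70543211 UMIs, each UMI a tag that marks 1 captured RNA molecule. After filtering, 5500 knock-in and 5489 wild-type cells remained, with medians of 5272.5 and 9635 UMIs. A Kit UMI was found in 56.0% of knock-in and 64.5% of wild-type cells. Summed markers of cells outside the gate came to 28.3 and 23.4 counts per 1000000 UMIs (CPM) for B cells, 150 and 189 CPM for T or NK cells, and 2.20 and 4.79 CPM for stromal cells, knock-in before wild type. The libraries shared 10 barcodes, 5 of them among the kept cells. Cells were clustered jointly without the 5 genes, and clusters were named by markers, so that each class name means resemblance only. The erythroid class held 3066 knock-in and 2310 wild-type cells. Knock-in erythroid cells lay mainly in clusters 1, 2 and 11 (39.1%, 43.2% and 12.4%), and wild-type erythroid cells mainly in clusters 13 and 14 (45.7% and 48.6%). Erythroid clusters 1, 2, 11 and 13, with 96.9% of knock-in and 48.1% of wild-type erythroid cells, had no erythroid marker among their 10 leading genes. They took the name from 8 to 10 detected early erythroid markers, and the score of cluster 2 was the lowest. Car1, an erythroid carbonic anhydrase, stood at 1278 to 3257 CPM in their knock-in cells and at 2749 CPM in wild-type cluster 13, against 32.6 CPM in knock-in and 73.1 CPM in wild-type stem and multipotent cells. Cluster 14, named late erythroid, held 1.30% of knock-in and 48.6% of wild-type erythroid cells. When knock-in cells were placed on clusters made from wild-type cells alone, the clusters named late erythroid took 433 and 57 knock-in cells. They held 652 and 87 wild-type cells. The share of cells named late thus depended on how the clusters were made. Differences of class levels therefore include differences in the cells each class holds.

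In the annotation of mm10, Ccnb1ip1 (ENSMUSG00000071470) spans 50789248 to 50807732 on the minus strand of chromosome 14. Gm26782 (ENSMUSG00000097431) spans 50870324 to 50880603, Pnp (ENSMUSG00000115338) 50931082 to 50965237 and Pnp2 (ENSMUSG00000068417) 50955992 to 50964749, each on the plus strand. Rpgrip1 (ENSMUSG00000057132) lies apart from them at 52110704 to 52163546 on the plus strand, and its start is 1155 kb from that of Pnp2. Pnp2 lies within the span of Pnp, in an intron of a long Pnp transcript, and their exons share 0 bases.

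Sequence likeness and overlap bear on how reads were assigned. Transcripts of Pnp (2942 bases) and Pnp2 (1372 bases) aligned over 1083 bases at 97.3% identity, with a longest identical run of 292 bases. The last 500 bases of Pnp, where a 3′ method reads, lay wholly outside the alignment, and 211 of the last 500 bases of Pnp2 lay inside it. Reads from that stretch of Pnp2 could be split between the copies or dropped. Of the 3979 exon bases of Pnp, 718 are shared on the same strand with Gm49342, which had 0 UMIs in either library. Pnp2 shares 32 exon bases with Gm49342. Pnp shares a further 356 with Gm38316 on the opposite strand. How reads in those bases were assigned is not known here. Exons of Ccnb1ip1 also share 233 bases on the same strand with Rpph1, the RNA of RNase P, whose 319 bases were not analysed here as a gene. RNA of Rpph1 and of Ccnb1ip1 in those bases cannot be told apart. Gm26782 shares 144 exon bases with Tep1 and Rpgrip1 shares 1057 with Supt16, each on the opposite strand, and the use of strand in counting is not given in the sources used here.

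The promoters of Pnp and Ccnb1ip1 are shown because these genes differ in opposite directions in erythroid cells, where GATA-1 acts. RefSeq (GRCm38.p6) gave a promoter, 250 bases before to 50 after the start, for 4 of the 5 genes. That of Pnp is chr14:50944053-50944352 on the plus strand and that of Ccnb1ip1 is chr14:50795679-50795978 on the minus strand, each printed 5′ to 3′ with GATA matches in capitals. These RefSeq starts are not the outermost starts of the spans above: that of Pnp lies 13.221 kb and that of Ccnb1ip1 12.004 kb downstream of them, and distances between genes are taken from the outermost starts. The promoters at the outermost starts are not shown.
Pnp: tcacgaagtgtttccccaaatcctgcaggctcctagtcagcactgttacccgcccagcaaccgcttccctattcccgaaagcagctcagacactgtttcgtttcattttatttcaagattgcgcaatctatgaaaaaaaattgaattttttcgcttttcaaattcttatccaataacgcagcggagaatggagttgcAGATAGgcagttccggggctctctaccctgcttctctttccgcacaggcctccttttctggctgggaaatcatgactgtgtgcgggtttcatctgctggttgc
Ccnb1ip1: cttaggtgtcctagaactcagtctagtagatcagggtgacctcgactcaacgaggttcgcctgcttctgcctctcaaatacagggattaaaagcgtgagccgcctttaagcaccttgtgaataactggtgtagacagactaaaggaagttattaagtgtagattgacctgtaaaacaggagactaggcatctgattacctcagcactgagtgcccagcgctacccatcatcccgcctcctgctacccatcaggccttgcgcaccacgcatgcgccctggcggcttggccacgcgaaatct
The GATA letters searched for on either strand were AGATAA as well as AGATAG, and also TGATAA as well as TGATAG. Pnp held 1, AGATAG, at position 198 counted from the 5′ end, and Ccnb1ip1, Gm26782 and Rpgrip1 held 0. A match was present in 29.8% of the 32851 promoters of that length. The letters CCNCNCCC, bound by Kruppel-like factors, were in none of the 4 promoters on either strand and in 49.5% of all. A match is a string of letters and not a shown binding site.

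Over all cells the 5 genes were each at least 2-fold apart, 1 higher and 4 lower in the knock-in. Of the 12012 genes with at least 50 UMIs over both libraries, 5.22% were at least 2-fold apart, 2.25% higher and 2.97% lower in the knock-in. The same share was 4.80% in erythroid cells, with 2.84% higher and 1.96% lower. It was 2.98% in megakaryocyte, 2.38% in basophil and mast, 1.82% in stem and multipotent, 1.92% in lymphoid-primed, 2.77% in monocyte and 2.53% in neutrophil cells. The genes were chosen on this contrast, so nothing is read from their number. The median log2 ratio of all genes was 0.07 over all cells and 0.05 in erythroid cells. Intervals are 95% intervals throughout and cover counting error only.

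Ccnb1ip1, the crossover ligase, had 1094 UMIs in the knock-in and 101 in wild type, or 25.1 and 1.57 CPM. The log2 ratio was 4.0 (3.70 to 4.31), a 16.0-fold higher level, and 18 of the 12012 genes were as high or higher. Erythroid cells held 1053 of the 1094 knock-in UMIs. Given equal weight for each class, the log2 ratio over all cells was 2.52.

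In erythroid cells Ccnb1ip1 stood at 36.1 CPM (34.0 to 38.4) in the knock-in and 1.29 CPM (0.943 to 1.73) in wild type. The log2 ratio was 4.81 (4.38 to 5.27), 28.0-fold, and 5 of 10728 genes were as high or higher. A Ccnb1ip1 UMI was found in 670 of 3066 knock-in cells (21.9%) and in 42 of 2310 wild-type cells (1.82%), although median depth was lower in the knock-in, at 6327.5 against 13882.5 UMIs. Thinned to 3000 UMIs per cell, which left out 739 knock-in and 166 wild-type cells, the shares were 7.91% (6.84 to 9.08) and 0.187% (0.0509 to 0.477). The highest count in a single knock-in cell was 8. The signal was thus spread over many erythroid cells and did not rest on a few.

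Outside the erythroid class Ccnb1ip1 was near the limit of counting. Stem and multipotent cells had 12 UMIs in the knock-in and 3 in wild type, a log2 ratio of 2.16 (0.27 to 4.63). Megakaryocyte cells had 8 and 3, basophil and mast cells 2 and 1, lymphoid-primed cells 2 and 0, and neutrophil cells 5 and 11, knock-in first, at levels of 1.91 to 3.03 CPM in the knock-in and 0 to 1.91 CPM in wild type. Monocyte cells were the class with the lower knock-in level, 2.13 CPM against 3.0 CPM in wild type, with an interval of the log2 ratio from -1.81 to 0.63. The thinned share of knock-in monocyte cells with a UMI was 0.840%, against 7.91% of knock-in erythroid cells. Their median depths were 10357 and 6327.5 UMIs.

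Free RNA in droplets can carry UMIs of an erythroid gene into other cells, and the abundant Car1 gives a scale for it. In knock-in erythroid cells there were 12.5 Ccnb1ip1 UMIs for every 1000 Car1 UMIs. The same ratio was 16.8 in knock-in megakaryocyte, 22.5 in basophil and mast, 35.1 in lymphoid-primed, 72.1 in monocyte, 78.1 in neutrophil and 111 in stem and multipotent cells. Each of these values was above that of erythroid cells, on 2 to 12 Ccnb1ip1 UMIs. In wild type the ratio was 0.397 in erythroid, 0 in lymphoid-primed and 0.894 in megakaryocyte cells. It was 11.1 in wild-type stem and multipotent, 13.5 in basophil and mast, 18.2 in monocyte and 33.6 in neutrophil cells. How much of those counts was free RNA was not tested.

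**Figure D1:**
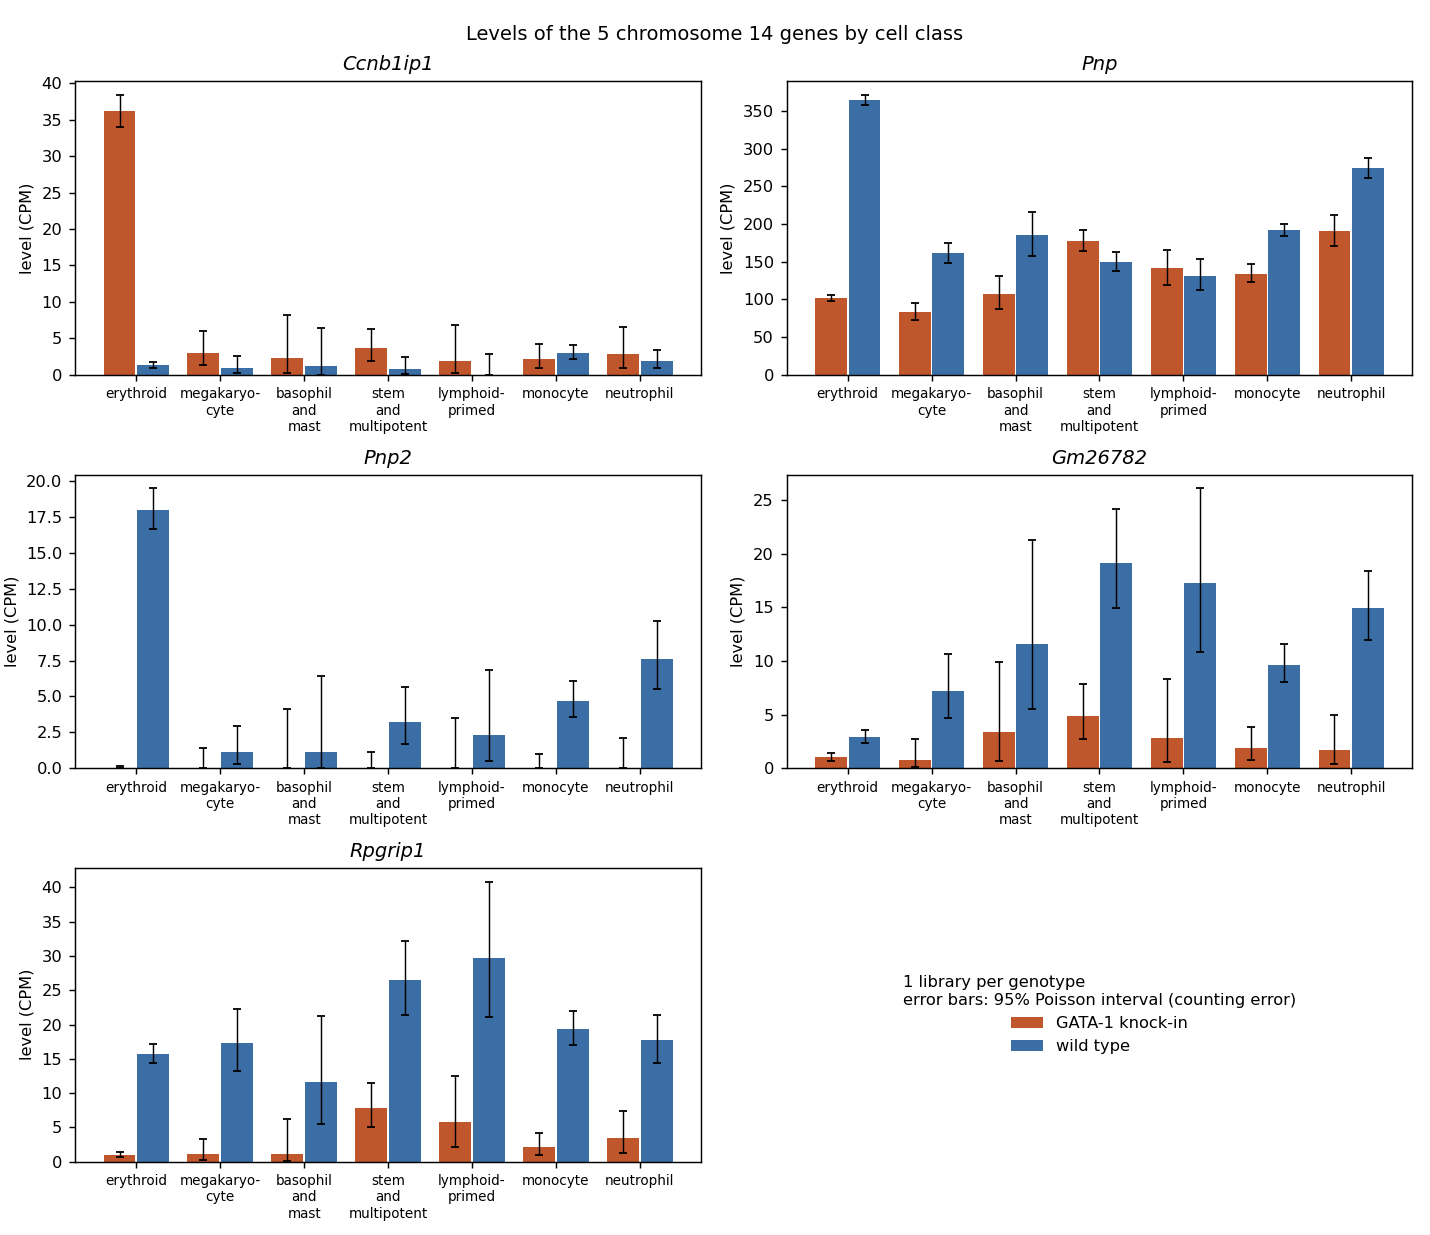
Level in CPM (vertical axes, each from 0) of the 5 genes in 7 cell classes, knock-in in orange left of wild type in blue, 1 library each; error bars are 95% Poisson intervals of counting error. Ccnb1ip1 stands at 36.1 CPM in knock-in erythroid cells against 1.29 CPM in wild type, Pnp2 has no knock-in bar, and Rpgrip1 and Gm26782 are lower in the knock-in in every class.

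Within the knock-in erythroid cells, Ccnb1ip1 was lowest in the cluster with the most Gata2, a factor of early progenitors. Cluster 2, with 435 CPM of Gata2, had 4.42 CPM of Ccnb1ip1 in 1326 cells. Cluster 13, with 293 CPM of Gata2, had 17.3 CPM in 67 cells. Cluster 11, with 170 CPM of Gata2, had 22.7 CPM in 380 cells, and cluster 1, with 64.7 CPM of Gata2, had 45.1 CPM in 1198 cells. Cluster 15, with the least Gata2 (20.4 CPM), had 40.7 CPM in 55 cells, with an interval that spans the value of cluster 1. These are a description of clusters of a single library. Wild-type clusters 13 and 14 had 1.07 and 1.40 CPM, and cluster 15 had no count in 76 cells.

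Clusters 13 and 15 held at least 50 cells of each library. In cluster 13 Ccnb1ip1 stood at 17.3 CPM in 67 knock-in cells and 1.07 CPM in 1056 wild-type cells, on 5 and 8 UMIs. In cluster 15 it stood at 40.7 CPM in 55 knock-in cells, on 14 UMIs, and had no count in wild type. The same clusters had lower Pnp in the knock-in, at 110 CPM against 238 CPM in cluster 13, and at 95.9 CPM against 444 CPM in cluster 15. The direction of both genes was therefore the same among cells that had clustered together. Knock-in cells were also placed on clusters made from wild-type cells alone, with values given knock-in first. The largest early erythroid cluster of that kind had 10.1 and 0.201 CPM of Ccnb1ip1 and 71.2 and 184 CPM of Pnp. The next largest early cluster had 50.4 and 1.55 CPM of Ccnb1ip1 and 116 and 410 CPM of Pnp. The largest late cluster had 45.7 and 1.44 CPM of Ccnb1ip1 and 113 and 415 CPM of Pnp. The remaining erythroid clusters had the same directions.

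**Figure D2:**
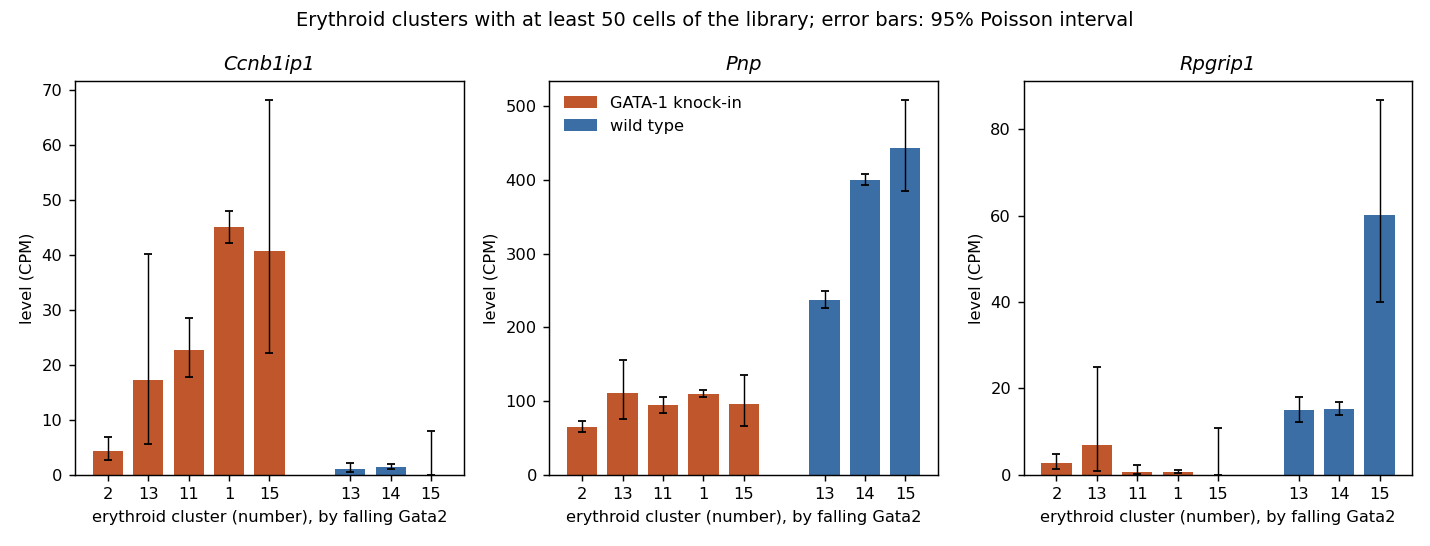
Level in CPM (vertical axes from 0) of Ccnb1ip1, Pnp and Rpgrip1 in erythroid clusters with at least 50 cells of the library, ordered by falling Gata2 within each library, knock-in in orange left of wild type in blue; error bars are 95% Poisson intervals. Knock-in Ccnb1ip1 is 4.42 CPM in cluster 2 and 45.1 CPM in cluster 1, and wild-type Pnp is 238 CPM in cluster 13 and 400.1 CPM in cluster 14.

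Pnp had 5002 UMIs in the knock-in and 18348 in wild type over all cells, or 114.6 and 285 CPM. The log2 ratio was -1.31 (-1.36 to -1.27), a 2.49-fold lower level, and 205 genes were as low or lower. With equal class weights it was -0.64. Erythroid cells had 102 CPM in the knock-in and 365 CPM in wild type, a log2 ratio of -1.84 (-1.90 to -1.78), or 3.57-fold lower. In early erythroid clusters alone it was -1.26. The Pnp difference was thus widest in the class where wild-type Pnp was highest.

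In the other classes the knock-in level of Pnp was lower in 4 and higher in 2. Megakaryocyte cells had 83.8 CPM in the knock-in and 161 CPM in wild type, a log2 ratio of -0.94 (-1.17 to -0.72). Basophil and mast cells had 107 and 185 CPM, monocyte cells 134 and 192 CPM, and neutrophil cells 190 and 274 CPM, knock-in first, with log2 ratios of -0.79, -0.52 and -0.52. The intervals of these ratios lay below 0. Wild-type monocyte cells also had more of the erythroid gene Car1 than knock-in ones, 165 against 29.5 CPM. Carry-over of Pnp from erythroid cells was not tested. Without the megakaryocyte cluster that had no megakaryocyte marker among its 10 leading genes, the megakaryocyte ratio was -0.39.

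Stem and multipotent cells had 177 CPM of Pnp in the knock-in (588 UMIs) and 149 CPM in wild type (554 UMIs), a log2 ratio of 0.25 (0.08 to 0.42). Lymphoid-primed cells had 141 and 131 CPM, a ratio of 0.10 with an interval that spans 0 (-0.23 to 0.43). Under a stricter cell filter the stem and multipotent ratio was -0.28, in a class that then held 1332 knock-in and 431 wild-type cells. The direction in stem and multipotent cells thus turned with the cells put in the class.

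The order of the classes differed between the libraries. In wild type Pnp was highest in erythroid, then neutrophil, monocyte, basophil and mast, megakaryocyte, stem and multipotent, and lymphoid-primed cells. Wild-type monocyte and basophil and mast cells had overlapping intervals, as had the neighbours below them in that order. In the knock-in Pnp was highest in neutrophil and stem and multipotent cells, whose intervals overlap, and lowest in erythroid and megakaryocyte cells. Thinned to 3000 UMIs, 23.9% of knock-in and 57.4% of wild-type erythroid cells had a Pnp UMI, against 39.1% and 36.1% of stem and multipotent cells.

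Pnp2, the neighbouring copy, had no UMI in the knock-in and 752 in wild type. Put at a floor of 3 UMIs for the library, the knock-in level was 170-fold lower, a log2 ratio of -7.41. The upper limit of that ratio, taken from the count of 0, was -7.11. The interval for 0 of 5500 knock-in cells reaches up to 0.067% of cells with a UMI. That limits cells with a Pnp2 UMI at this depth, not cells that express Pnp2. In wild type Pnp2 was found in 567 of 5489 cells (10.3%). Its wild-type level was highest in erythroid cells, at 18.0 CPM (628 UMIs), then neutrophil cells at 7.63 CPM (44 UMIs) and monocyte cells at 4.70 CPM (58 UMIs). Stem and multipotent cells had 12 UMIs, and the remaining classes 1 to 4. Wild-type monocyte cluster 7, with 243 CPM of Car1, held 40 of the 58 monocyte UMIs of Pnp2. How much of them was carried over from erythroid cells was not tested. With doublets kept, the knock-in was no longer at 0 for Pnp2, and the log2 ratio over all cells was -9.09. That ratio used the knock-in count as it was, without the floor of 3 UMIs. It therefore does not show a larger difference than -7.41, a value set by the floor.

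Whether Pnp stood higher where Pnp2 was missing was read from the sum of both genes. UMIs mark the 3′ ends of molecules, so the counts were added without length scaling. Pnp2 made up 4.72% (4.36 to 5.09) of wild-type erythroid UMIs of both genes, 2.71% in neutrophil, 2.39% in monocyte and 2.12% in stem and multipotent cells. It made up 0 of 5002 in the knock-in. Pnp2 was therefore a small share of the counted UMIs of both genes in every wild-type class. Reads from the stretch of Pnp2 that is like Pnp could have been lost, so its share of the RNA could be higher.

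In erythroid cells the sum was 102 CPM in the knock-in and 383 CPM in wild type, a log2 ratio of -1.91 (-1.97 to -1.85). In early erythroid clusters alone, which leave out cluster 14, named late and mainly of wild-type cells, it was -1.29. The early clusters were not matched for stage. Gata2 stood at 64.7 CPM in knock-in cluster 1 and 194 CPM in wild-type cluster 13. Hbb-bs, a globin, had 755 CPM in knock-in and 42.8 CPM in wild-type cells of the whole erythroid class, cluster 14 included. It was among the leading genes of cluster 14, which held 40 knock-in cells, and its level in the early clusters alone is not given here. Over the whole erythroid class the knock-in minus wild-type difference in counted UMIs was -263 CPM for Pnp and -18.0 CPM for Pnp2. Pnp was thus not higher in place of Pnp2 but lower by more. In stem and multipotent cells Pnp differed by 28.0 CPM and Pnp2 by -3.24 CPM, and the sum was 177 CPM in the knock-in and 153 CPM in wild type. In lymphoid-primed cells Pnp differed by 9.58 CPM, within counting error. A total in the knock-in at or above that of wild type was seen in these classes alone of the 7, and in stem and multipotent cells it turned to a log2 ratio of -0.30 under the stricter filter.

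**Figure D3:**
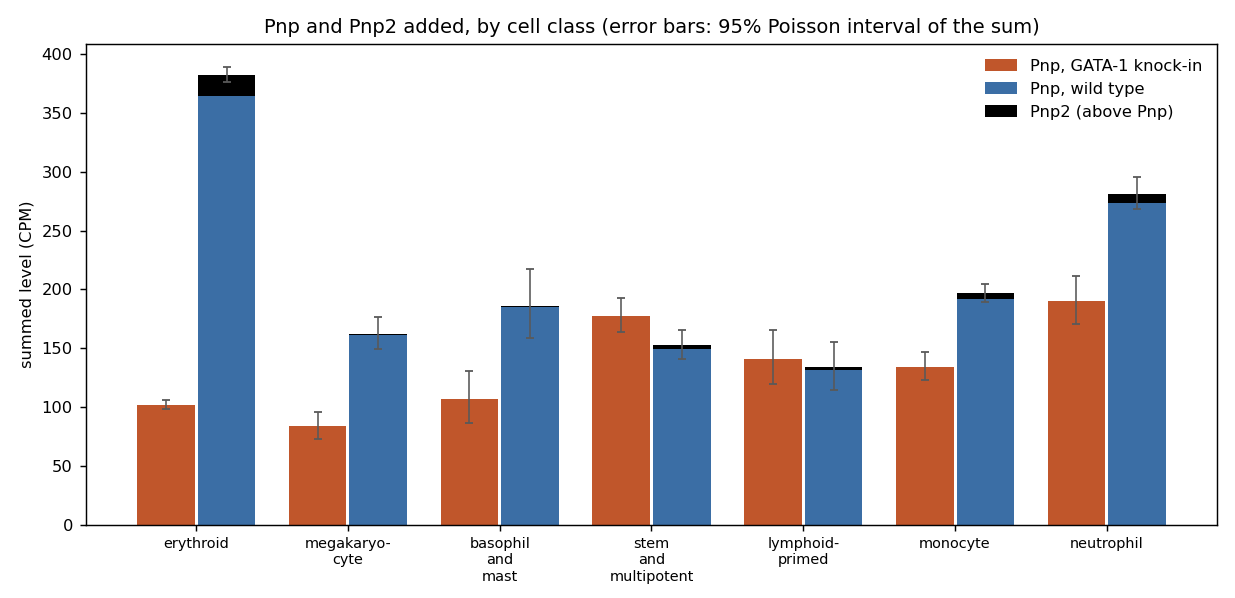
Summed level of Pnp and Pnp2 in CPM (vertical axis from 0) by cell class, Pnp of the knock-in in orange left of Pnp of wild type in blue, with Pnp2 in black on top; error bars are 95% Poisson intervals of the sum. Pnp2 is a thin band in wild type and missing from the knock-in, and the erythroid sum is 102 CPM in the knock-in against 383 CPM in wild type.

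Within the wild-type library, erythroid cells with Pnp2 also had more Pnp. At 3000 UMIs per cell, 81 erythroid cells with a Pnp2 UMI had 1.33 Pnp UMIs per cell (1.09 to 1.61), and 2063 without had 0.902 (0.861 to 0.944). Pnp was found in 76.5% (65.8 to 85.2) of the cells with Pnp2 and in 56.6% (54.4 to 58.8) of those without. The same order was not seen in the other classes with such cells, on few of them. Stem and multipotent cells had 0.286 Pnp UMIs per cell in 7 cells with Pnp2 and 0.471 in 599 without. Monocyte cells had 0.40 in 5 and 0.552 in 985, and neutrophil cells 0.846 in 13 and 0.879 in 521, each with intervals that overlap. The knock-in erythroid cells, all without a Pnp2 UMI, had 0.273 Pnp UMIs per cell (0.252 to 0.295). Cells of 1 library are not replicates, and the wild-type clusters differ in both genes, with 5.46 CPM of Pnp2 in cluster 13 and 21.6 CPM in cluster 14.

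Gm26782, the antisense RNA, had 64 UMIs in the knock-in and 466 in wild type, or 1.47 and 7.24 CPM, a log2 ratio of -2.30 (-2.70 to -1.92). Erythroid cells had 0.996 CPM in the knock-in and 2.90 CPM in wild type, the lowest wild-type level of the 7 classes, and a log2 ratio of -1.54 (-2.19 to -0.94). In early erythroid clusters alone it was -2.33. Stem and multipotent cells had 4.83 CPM in the knock-in and the highest wild-type level, 19.2 CPM. Its wild-type level was thus lowest in the class where that of Pnp2 was highest. The remaining classes had 0.759 to 3.38 CPM in the knock-in and 7.22 to 17.2 CPM in wild type, and the intervals of 6 of the 7 class ratios lay below 0.

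Rpgrip1, the cilium anchor, had 83 UMIs in the knock-in and 1138 in wild type, or 1.90 and 17.7 CPM, a log2 ratio of -3.22 (-3.56 to -2.89) and 9.30-fold lower. Erythroid cells had 0.961 CPM in the knock-in and 15.7 CPM in wild type, a log2 ratio of -4.03 (-4.64 to -3.49), and -4.72 with doublets kept. Stem and multipotent cells had 7.85 and 26.4 CPM, a log2 ratio of -1.75 (-2.44 to -1.12). Knock-in levels ran from 0.961 to 7.85 CPM across the classes. Wild-type levels ran from 11.5 CPM in basophil and mast cells to 29.7 CPM in lymphoid-primed cells. The intervals of all 7 class ratios lay below 0. Thinned to 3000 UMIs, 0.516% of knock-in and 6.06% of wild-type erythroid cells had an Rpgrip1 UMI.

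Of 152 other annotated genes within 1 Mb of the interval, 21 had at least 50 UMIs, with 13 higher and 8 lower in the knock-in and a median log2 ratio of 0.15. At least 2-fold apart were 3 of them (14.3%, against 5.22% of all genes). Rnase12, of the RNase A family, had 2 UMIs in the knock-in and 169 in wild type, a log2 ratio of -5.84 (-8.90 to -3.97). Rnase4 had 95 and 64 UMIs (1.13) and Ang had 16 and 51 (-1.11), and these were named after their values were seen. Rnase4 and Ang start within 0.1 kb of each other, and how reads were split between them is not known here.

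Genes that adjoin the 5 give the local comparison. Parp2, a DNA repair polymerase that starts beside the outermost start of Ccnb1ip1, had 66.3 CPM in the knock-in and 62.7 CPM in wild type, a log2 ratio of 0.08. Apex1, a DNA repair endonuclease, and Osgep, a tRNA-modifying enzyme, start near Pnp and had ratios of -0.10 and -0.23. Tmem55b, a lipid phosphatase gene whose start is nearest to the outermost start of Pnp, had 924 UMIs in the knock-in and 1932 in wild type, a ratio of -0.50 (-0.62 to -0.39), lower like Pnp but by less. Tep1, opposite Gm26782, had -0.04 over all cells and 1.19 in erythroid cells, on 143 and 75 UMIs. Hnrnpc and Supt16, beside Rpgrip1, had -0.03 and 0.36. In erythroid cells 17 other genes were measured, 1 was at least 2-fold apart (5.88%, against 4.80% of all genes), and the median was 0.08. The neighbours named here, apart from Rnase12, were chosen after their values were seen.

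**Figure D4:**
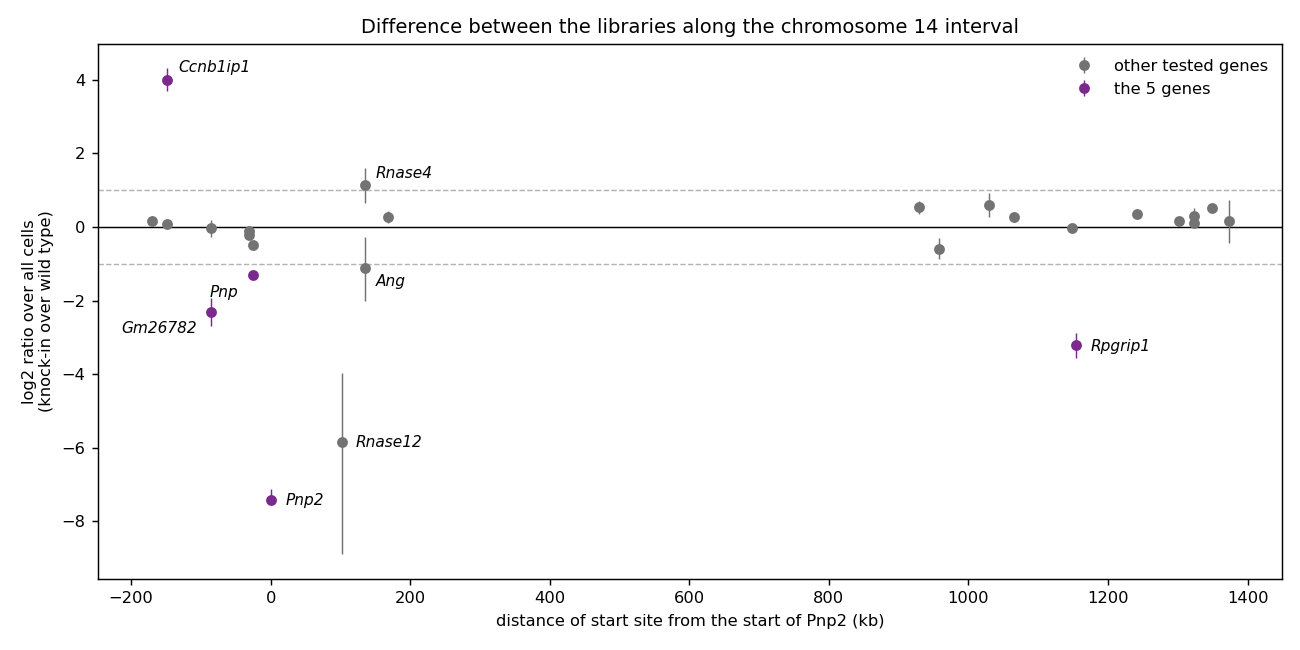
Log2 ratio of the knock-in over wild type over all cells (vertical axis) against the distance of each gene's start from the start of Pnp2 in kb (horizontal axis), the 5 genes in purple and the 21 other measured genes in grey; bars are 95% intervals of counting error and dashed lines mark 2-fold. Ccnb1ip1 at 4.0 lies above and Pnp2, Rpgrip1, Gm26782 and Pnp lie below the band that holds most neighbours.

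In erythroid cells 34 of 38 listed genes of purine salvage, synthesis and transport without Pnp and Pnp2 had at least 50 UMIs, of which 21 were higher and 13 lower in the knock-in, with a median log2 ratio of 0.02 beside 0.05 for all genes. Hprt, which salvages the bases that the phosphorylase releases, had 172.8 CPM in either library. Impdh2, the rate-limiting enzyme of guanine nucleotide synthesis, had 451.5 and 457 CPM, and Aprt, which salvages adenine, had 277 and 269 CPM, knock-in first. Ada, adenosine deaminase, which makes inosine upstream of Pnp, was the 1 member at least 2-fold apart (2.94% of the 34, against 4.80% of all genes), with 15.6 CPM in the knock-in and 7.61 CPM in wild type, a log2 ratio of 1.03 (0.81 to 1.26). Over all cells 35 were measured and 0 were at least 2-fold apart, against 5.22% of all genes. At these numbers the counts do not set the list apart from other genes.

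The lists around Ccnb1ip1 and Rpgrip1 had 8 other measured genes each, of which 0 were at least 2-fold apart over all cells, against 5.22% of all genes. Of 19 other crossover and B-type cyclin genes, 8 were measured, 3 higher and 5 lower in the knock-in, with a median log2 ratio of -0.13. Ccnb1, the cyclin that Ccnb1ip1 binds, had 59.1 and 69.6 CPM (-0.24), and Ccnb2 had 85.2 and 102 CPM (-0.26). Cdk2, a cell cycle kinase, and Exo1, a DNA exonuclease, had ratios of -0.22 and -0.19. Of 9 other cilium genes, 8 were measured, 4 higher and 4 lower, with a median of 0.01. Cep290 had a ratio of 0.34 and Pde6d of -0.18, and Rpgr, whose protein Rpgrip1 anchors, had 7.63 and 5.47 CPM (0.48).

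The genes most like each of the 5 were ranked by Pearson correlation of log2(CPM + 1) over 14 points, the 7 classes of each library. The points share 2 libraries of unequal depth, and the correlations are a description. Nearest to Ccnb1ip1 were the globins Hba-a2 (0.83) and Hbb-bs (0.81) and Rem2 (0.81), a gene of chromosome 14. Hba-a2 had 228 CPM in knock-in and 12.7 CPM in wild-type erythroid cells, and Hbb-bs 755 and 42.8 CPM. Both globins were among the 10 leading genes of cluster 14, which held 1.30% of knock-in erythroid cells. Of the 1053 Ccnb1ip1 UMIs of knock-in erythroid cells, 924 lay in cluster 1. The correlation is of class levels and does not show that the same cells held these genes. Nearest to Pnp were AC160336.1 (0.78), Pnp2 (0.77) and CAAA01118383.1 (0.76). Nearest to Pnp2 were Erh (0.92), Gstp1 (0.90) and Usp50 (0.89), and Gstp1, a glutathione transferase, had 8.48 CPM in knock-in and 65.2 CPM in wild-type erythroid cells. Nearest to Gm26782 were Snx14 (0.94), Sec62 (0.93) and Rpl39 (0.92), and nearest to Rpgrip1 were the ribosomal protein genes Rps28 (0.95), Rpl37 (0.95) and Rpl36 (0.94).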

How the data were processed

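The authors deposited a matrix of unnormalized UMI counts for each droplet 3′ library, written by Cell Ranger 3.1.0 per the file headers. The submitters' processing notes name mm10 as the build. The 5 genes, the gene lists and the markers were chosen with earlier results of these data known. Kept were barcodes with 500 or more genes, 1000 or more UMIs and no more than 10% of UMIs from mitochondrial genes. Scrublet doublets were removed, 2.59% in wild type. In the knock-in, where its own call of 0.0692% fell short of the 0.5% required, cells with the highest 5% of scores were taken out. Cells were clustered with scanpy 1.11.5 on 2000 variable genes without the 5 genes and the listed genes, with 30 components, 15 neighbours and Leiden resolution 1. Early and late erythroid clusters were pooled after the data were seen, because the late class held under 100 knock-in cells. For every class with 100 or more cells in each library, counts were added up by library and scaled to CPM. Levels have exact Poisson, shares exact binomial (Clopper-Pearson) and ratios exact conditional binomial 95% intervals. A library without a UMI of a gene was put at a floor of 3 UMIs. Free RNA was not removed. Of 31053 gene IDs, 30934 were found in GENCODE M21.

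Named were the 5 genes, neighbours apart by 2-fold or more where the larger count was at least 100 UMIs, per list the 4 genes with the most UMIs and those at least 2-fold apart with 100 UMIs, and the 3 genes of most like pattern (at least 200 UMIs). The text gives part of these, and Hprt, Cep290, Pde6d and Rpgr were chosen after their values were seen where the rule did not take them. On simulated counts for all cells, 200 of 200 genes changed 4-fold were recovered, 8 unchanged genes passed 2-fold, and 95.3% of intervals held the true ratio. The simulated counts varied by counting error alone. They therefore say nothing on variation between libraries, animals or mixes of cells. Alternatives were other scalings, count minimums, resolutions, cell filters, doublets kept, placement on wild-type clusters, and the 5 genes and the listed genes allowed in clustering.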

Additional observations from a re-analysis of the deposited data

Results flagged for a closer look

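Pnp differed between the libraries in opposite directions by class. Its log2 ratio was 0.25 in stem and multipotent cells, and -1.84 in erythroid, -0.94 in megakaryocyte, -0.79 in basophil and mast, -0.52 in monocyte and -0.52 in neutrophil cells, knock-in over wild type. The opposite direction rests on the stem and multipotent value, which was -0.28 under the stricter cell filter. With 1 library per genotype the difference between the classes was not tested.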

How the results depend on the processing

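Over all cells and in erythroid cells no ratio of the 5 genes or of Pnp plus Pnp2 changed direction under the alternatives run. Of 171 class values under alternatives, 169 had the sign of the reported value. The other 2 were Pnp (-0.28) and Pnp plus Pnp2 (-0.30) in stem and multipotent cells under the stricter cell filter. With equal class weights, an alternative chosen after seeing the data, the log2 ratios over all cells were 2.52 for Ccnb1ip1, -0.64 for Pnp, -2.63 for Rpgrip1 and -0.68 for Pnp plus Pnp2. Median-of-ratios scaling gave -1.38 for Pnp and -1.44 for Pnp plus Pnp2. In erythroid cells Pnp plus Pnp2 was -1.29 in early clusters alone and -1.99 at Leiden resolution 1.6. It was -1.98 with the 5 genes and the listed genes allowed in clustering, and -1.80 with doublets kept. Genes at least 2-fold apart over all cells numbered 3713 with at least 1 UMI and 329 with at least 200 UMIs, against 627 as reported. In erythroid cells they numbered 3176 and 241, against 515. Across the alternatives the erythroid log2 ratio ranged from 4.69 to 5.17 for Ccnb1ip1, -1.92 to -1.26 for Pnp, -4.72 to -3.89 for Rpgrip1 and -2.33 to -1.38 for Gm26782. The megakaryocyte ratio of Pnp ranged from -0.99 to -0.38. The cause of these changes was not tested. The stem and multipotent class held under 100 cells of a library at Leiden resolution 0.6, on wild-type clusters and with doublets kept, and gave no value there. Outside erythroid cells Ccnb1ip1 and Pnp2 rest on few UMIs, and depth limits them. No paired analysis was possible because each genotype had 1 library.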

Other observations

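Among neighbours with under 50 UMIs over both libraries, Ear6, an eosinophil-associated ribonuclease, had 21 UMIs in the knock-in and 1 in wild type, and Rnase10 had 0 and 21. Dmc1, a meiotic recombinase of the crossover list and not a neighbour, had 3 UMIs in the knock-in and 34 in wild type. These genes were chosen after their values were seen.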
